A study of Mus musculus with 4 samples.

Results

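Sox9, Wt1, Gata4, Fshr, Inha, Inhbb, Amh, Cldn11 and Clu are 9 genes by which Sertoli cells are recognised or through which they exchange hormone signals with the rest of the body. They were chosen by name, and they are 9 of the 22311 gene symbols in the deposited RNA-seq tables. All 9 passed the filter on low values and are among the 12985 genes tested. RNA from whole testes was sequenced at postnatal day 24 (P24) in 2 Rfx2 mutant samples (mutant 1 and 2) and 2 control samples (control 1 and 2), all male. Mutants carry Rfx2-/-, a conventional allele made from 1 targeted ES cell clone in which a neo cassette takes the place of exons, so the gene is disrupted in Sertoli cells as well as in germ cells. The labels call the controls wild type and the strain DBA, whereas the study's methods describe heterozygous animals on a mixed 129/s6 and C57BL/6 background, and which description holds for these libraries is unresolved. The comparison asked whether the RNAs of the somatic supporting cell were at another level in the testis that lacks RFX2, a transcription factor needed in spermatids.

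Sertoli cells line the seminiferous tubules, enclose the germ cells at every stage and seal the tubule with tight junctions. SOX9, WT1 and GATA4 set and maintain their identity. The pituitary hormone FSH acts on them through its receptor FSHR, and they answer with inhibin B, a dimer of the alpha subunit (Inha) and the beta B subunit (Inhbb) that lowers FSH secretion. AMH is a marker of the immature Sertoli cell and declines as the cells mature at puberty.

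Values are FPKM, fragments scaled to transcript length and to the number mapped, so levels can be compared between genes per length. Confidence bounds in the deposited tables correspond to 17.2 to 20.3 M fragments per sample. The members rest on very unequal numbers of these fragments, from 113 to 208 per sample for Fshr up to 17024 to 26893 for Clu. Rfx2 itself was at 36.7 and 39.8 FPKM in mutant 1 and 2 and at 123 and 89.4 FPKM in control 1 and 2. Its log2 fold change of mutant against control was -1.43 (SE 0.19, adjusted p = 0.00617 by limma with Benjamini-Hochberg adjustment). That p rose to 0.0607 without the filter on low values, 0.0829 with median-ratio scaling, 0.0663 with limma-voom on the fragment numbers and 0.0628 without control 1.

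None of the 9 genes passed the test between genotypes, and the samples of the genotypes overlapped for each of them. Ordered by mean FPKM over the 4 samples, Clu was the highest at 479 ± 79.0 (SD, n = 4), followed by Inha at 100.9 ± 14.5 and Cldn11 at 65.4 ± 11.4. Wt1 followed at 13.3 ± 2.77, Inhbb at 10.03 ± 1.73, Amh at 7.28 ± 1.38 and Gata4 at 7.25 ± 1.42. Sox9 at 5.02 ± 1.26 and Fshr at 2.60 ± 0.578 were the lowest. The sample ranges of Clu, Inha, Cldn11 and Wt1 did not overlap between neighbours in this order, nor did those of Sox9 and Fshr. Wt1 and Inhbb, Inhbb and Amh, Amh and Gata4, and Gata4 and Sox9 had overlapping ranges, and Amh was above Gata4 in 2 of the 4 samples. Clu was higher than 99.6% of the genes tested and Fshr than 18.5%.

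Sox9 (NCBIM37 chr11:112643538-112649074, plus strand) encodes the transcription factor that directs Sertoli cell fate. Its FPKM was 5.74 in mutant 1, 4.57 in mutant 2, 3.48 in control 1 and 6.31 in control 2. The 2 controls were the lowest and the highest samples, with both mutants between them. The log2 fold change on the log2(FPKM + 1) scale was 0.099 (SE 0.28, 95% interval -0.56 to 0.75).

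Wt1 (chr2:104966686-105013773, plus strand) encodes a zinc finger factor that Sertoli cells need throughout life. Its FPKM was 16.4 in mutant 1, 12.4 in mutant 2, 9.96 in control 1 and 14.5 in control 2. Mutant 1 was the highest and control 1 the lowest, and the groups overlapped. Between genotypes the log2 fold change was 0.23 (SE 0.24, interval -0.33 to 0.78).

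Gata4 (chr14:63817759-63890529, minus strand) encodes a GATA-binding factor that is also present in Leydig cells. Its FPKM was 9.0 in mutant 1, 5.96 in mutant 2, 6.26 in control 1 and 7.79 in control 2. Here the 2 mutants were the highest and the lowest samples. Its log2 fold change of 0.063 (SE 0.25, interval -0.51 to 0.64) was the smallest among the members.

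Fshr (chr17:89384292-89600015, minus strand) encodes the FSH receptor, whose expression in the testis is restricted to Sertoli cells. Its FPKM was 2.88 in mutant 1, 2.54 in mutant 2, 1.82 in control 1 and 3.16 in control 2. The controls again enclosed the mutants. Fshr had a log2 fold change of 0.11 (SE 0.25, interval -0.46 to 0.69).

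Inha (chr1:75503652-75506941, plus strand) encodes the subunit shared by both inhibins. Its FPKM was 108 in mutant 1, 97.0 in mutant 2, 82.6 in control 1 and 116 in control 2, so the mutants lay between the controls. Inha had a log2 fold change of 0.067 (SE 0.20, interval -0.40 to 0.54). Inhbb (chr1:121312042-121318825, minus strand), the beta B subunit, was at 11.1 FPKM in mutant 1, 9.56 in mutant 2, 7.80 in control 1 and 11.6 in control 2, the same order of samples. For Inhbb the log2 fold change was 0.099 (SE 0.24, interval -0.45 to 0.64). The alpha subunit exceeded the beta B subunit in FPKM by 9.76, 10.1, 10.6 and 9.94 times in mutant 1, mutant 2, control 1 and control 2. The highest of these ratios was 1.08 times the lowest, whereas Inha and Inhbb each differed between the controls by more than that. Inhba, the beta A subunit, was under the filter, with 0.117 to 0.247 FPKM.

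Amh (chr10:80267993-80270393, plus strand) encodes anti-Mullerian hormone. Its FPKM was 8.21 in mutant 1, 6.88 in mutant 2, 5.51 in control 1 and 8.52 in control 2. Both mutants fell between the controls. The log2 fold change was 0.11 (SE 0.25, interval -0.46 to 0.69). On the same scale Amhr2, which encodes the AMH receptor, had a log2 fold change of 0.17, with 129 and 104 FPKM in the mutants and 95.5 and 111 in the controls.

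Cldn11 (chr3:31048868-31063246, plus strand) encodes claudin 11, a structural protein of the Sertoli cell tight junction. Its FPKM was 74.7 in mutant 1, 64.2 in mutant 2, 49.7 in control 1 and 73.0 in control 2. Control 1 was below the other 3 samples, and mutant 1 was just above control 2. Cldn11 had a log2 fold change of 0.20 (SE 0.21, interval -0.30 to 0.69). Clu (chr14:66587320-66600385, plus strand) encodes clusterin, a glycoprotein that Sertoli cells secrete in large amounts. Its FPKM was 556 in mutant 1, 492 in mutant 2, 368 in control 1 and 500.2 in control 2. Mutant 2 was just below control 2, while mutant 1 was above both controls, so the groups overlapped narrowly. The log2 fold change of 0.28 (SE 0.23, interval -0.25 to 0.82) was the largest among the members.

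**Figure D1:**
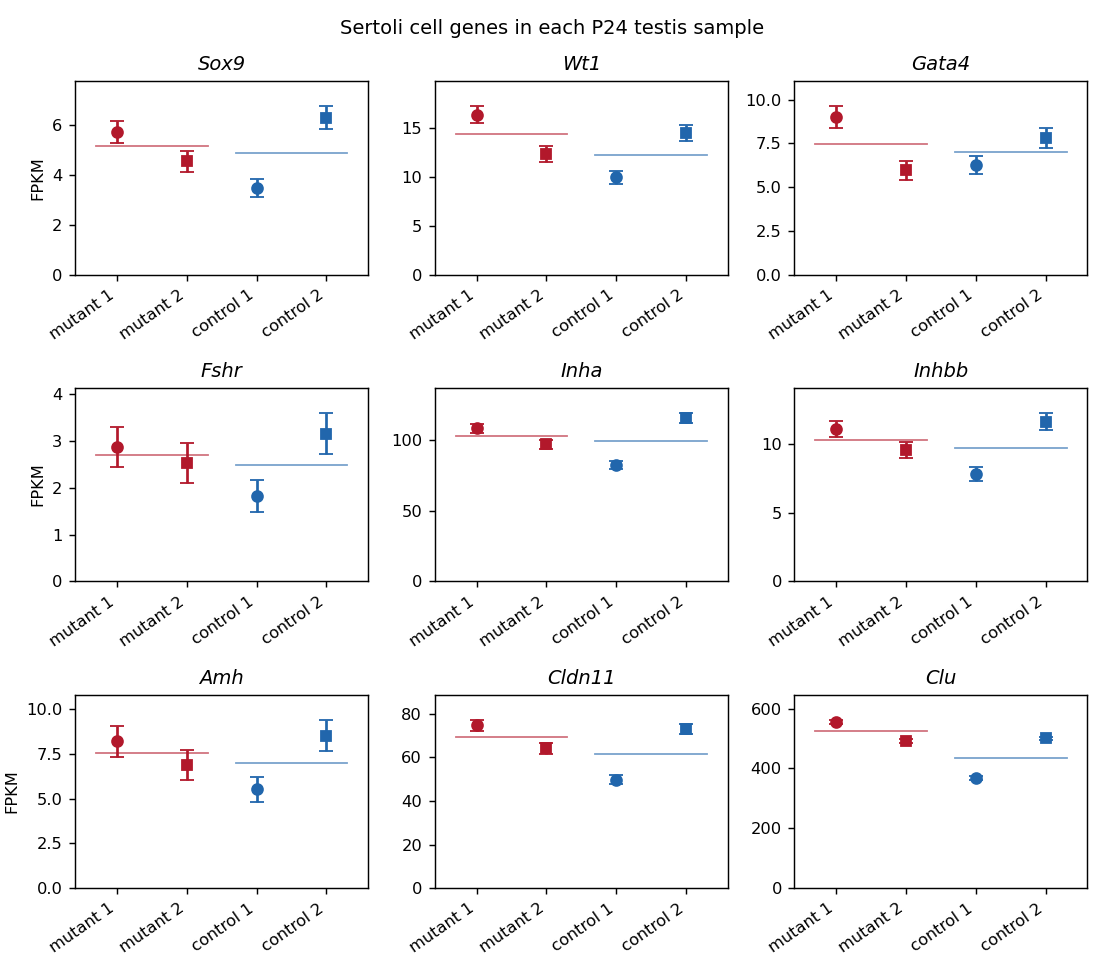
FPKM of the 9 genes, 1 panel a gene and ordered by role, with a point for each of the 4 samples, its deposited confidence interval as the bar, and a line at the mean of each genotype. Control 1 was the lowest sample for 8 of the 9 genes, and in every panel the genotypes overlapped.

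Over the 9 members, 0 rose and 0 fell by limma at an adjusted p under 0.05, each with an adjusted p of 0.9999. Of all genes tested, 0.308% were called higher and 2.52% lower in the mutant. The unadjusted p of the members ran from 0.255 for Clu to 0.808 for Gata4, and 0 were under 0.05, against 2.01% of all genes tested that were higher and 6.68% that were lower at that level. By limma-voom on the fragment numbers 0 members passed an adjusted p of 0.05. For 0 of the 9 were both mutants above both controls, against 16.3% of all genes tested, and for 0 were both mutants below, against 15.2%. The log2 fold change was above 0 for all 9, beside 57.3% of all genes tested. Its median was 0.11 over the members and 0.032 over all genes tested. Every interval included 0, and the widest, that of Sox9, reached from -0.56 to 0.75. An exact permutation test of 2 against 2 samples cannot give a p below 0.333, so values outside the limma fit, such as sums and ratios, were given no test. In whole testis RNA, a difference in the share of Sertoli cells and one in RNA per Sertoli cell cannot be told apart. From WT1 immunostaining, the paper reports comparable Sertoli cell numbers in wild-type and mutant mice.

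**Figure D2:**
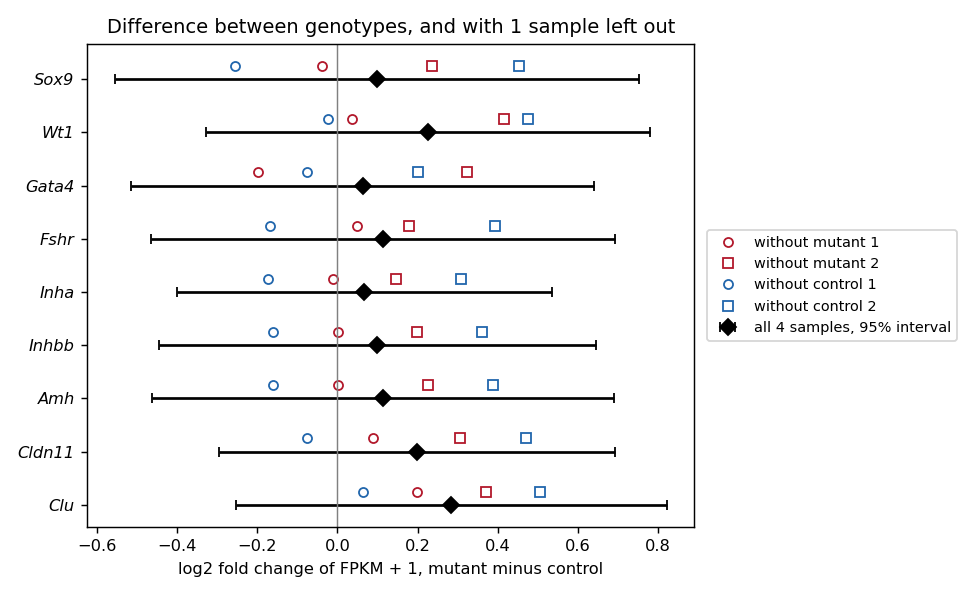
Log2 fold change of mutant against control on the log2(FPKM + 1) scale for the 9 genes, as a diamond with its 95% interval from limma, and as open symbols with 1 sample left out. All 9 diamonds lie above 0, between 0.063 and 0.28, beside 57.3% of all genes tested with a value above 0. All 9 intervals include 0, and without control 1 the symbols of 8 genes lie below 0.

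The direction of the difference rested on control 1 for 8 of the 9 genes. For all 9 genes control 2 was above control 1, by 0.28 (Gata4) to 0.71 (Sox9) on the log2 scale with a median of 0.52, and in each this gap was larger than the difference between genotypes. Over all genes tested the median gap between the controls was 0.078, and 59.0% were higher in control 2. The deposited confidence intervals of control 1 and control 2 did not touch for any of the 9. Those of mutant 1 and mutant 2 were apart for 7 of the 9, and those of mutant 1 and control 2 for 4. The intervals were read as counting error inside a sample, so they do not measure the variation between animals. Their separation over all genes tested was not computed. Mutant 1 was above mutant 2 for all 9, by a median of 0.22 beside 0.12 over all genes tested, of which 68.1% were higher in mutant 1. Control 1 was the lowest sample for 8 genes and mutant 2 for Gata4. Control 2 was the highest for Sox9, Fshr, Inha, Inhbb and Amh, and mutant 1 for Wt1, Gata4, Cldn11 and Clu.

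Without control 1 the log2 fold changes ran from -0.26 to 0.064 with a median of -0.16, and 8 of the 9 fell below 0, the exception being Clu. Without control 2 all 9 were above 0, from 0.20 to 0.50, and without mutant 2 all 9 were above 0, from 0.15 to 0.42. Without mutant 1 they ran from -0.20 to 0.20, with Sox9, Gata4 and Inha below 0. Median-ratio scaling, which sets the median gap between the controls over all genes tested at -0.053, left a median gap of 0.38 over the members, with control 2 above control 1 for all 9. With that scaling both mutants were above both controls for Clu, and the other 8 genes still overlapped. The share of all genes tested so separated was not computed with that scaling, and in the deposited values it was 16.3%. Quantile normalization gave a median gap of 0.41 between the controls, with all 9 higher in control 2.

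The summed FPKM of the 9 members was 792 and 695 in mutant 1 and 2 and 535 and 741 in control 1 and 2. As a share of the FPKM of a sample this was 0.220% and 0.181% in the mutants and 0.137% and 0.205% in the controls. To compare the members with each other inside a sample, the mean log2(FPKM + 1) of Sox9, Wt1 and Gata4 was subtracted from that of each of the other 6. This mean was 3.40 in mutant 1, 3.01 in mutant 2, 2.83 in control 1 and 3.32 in control 2. Relative to it, control 2 minus control 1 was between -0.055 (Clu) and 0.066 (Fshr), against 0.50 for the mean of the 3 factors themselves. On this scale, the gap between the controls in the levels of the 6 genes was thus nearly that of the factors. In FPKM without the pseudocount, Fshr over Wt1 was 0.183 in control 1 and 0.218 in control 2. Between the mutants the gaps differed more. Relative to the factors, mutant 1 minus mutant 2 was between -0.26 (Fshr) and -0.17 (Amh), against 0.39 for the mean of the factors themselves.

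Between genotypes the relative level differed by -0.015 for Fshr, -0.062 for Inha, -0.030 for Inhbb, -0.015 for Amh and 0.069 for Cldn11. Clu was at 5.72 and 5.94 above the factors in mutant 1 and 2 and at 5.70 and 5.65 in control 1 and 2. It was the only one of the 6 with both mutants above both controls on this scale, by 0.16 on average, with mutant 1 only narrowly above control 1. For all 6 genes the relative level was highest in mutant 2. The 6 share 1 baseline, so these are not 6 separate observations. In level, mutant 1 minus mutant 2 was 0.52 for Gata4, 0.38 for Wt1 and 0.28 for Sox9. For the 6 genes it was between 0.13 (Fshr) and 0.22 (Amh). Clu over Cldn11 in FPKM was 7.43, 7.67, 7.41 and 6.85 in mutant 1, mutant 2, control 1 and control 2. Of 8 FPKM ratios between members the highest sample exceeded the lowest by 1.08 times (Inha over Inhbb) to 1.30 times (Gata4 over Wt1), the latter at 0.549 and 0.482 in the mutants and 0.628 and 0.537 in the controls. Inha over Clu was 0.195 and 0.197 in the mutants and 0.224 and 0.231 in the controls, so the groups did not overlap. Nor did they, narrowly, for Clu over Cldn11. In level, both mutants were below both controls for 15.2% of all genes tested and above for 16.3%, so such a separation is common with 4 samples. These relative values were not tested.

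**Figure D3:**
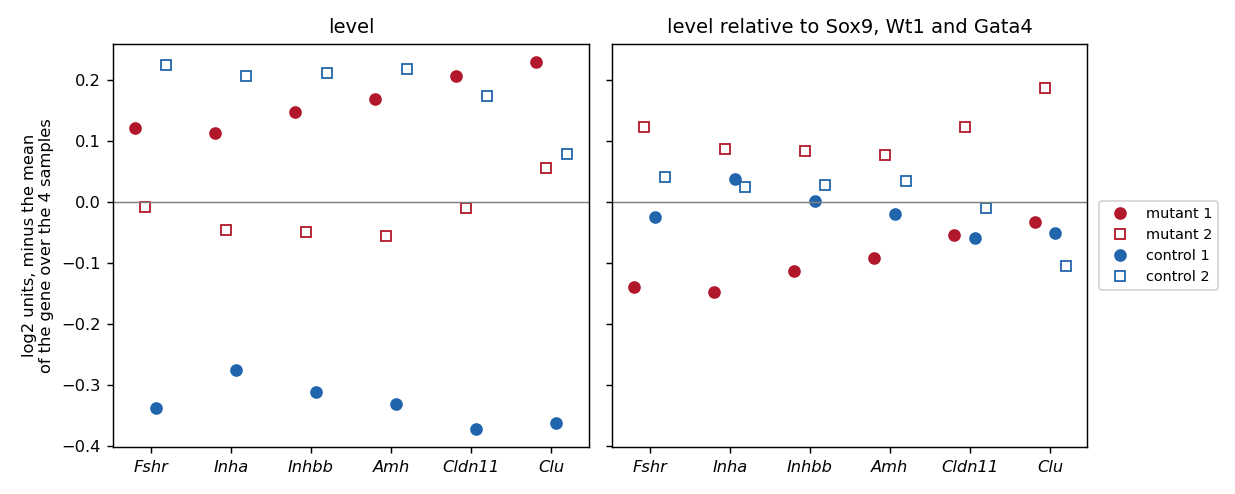
Left, log2(FPKM + 1) of 6 members in each sample, minus the mean of the gene over the 4 samples. Right, the same after subtracting the mean of Sox9, Wt1 and Gata4 in each sample. There control 1 and control 2 lie close together and mutant 2 is the highest for all 6 genes, which share this baseline.

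Promoter sequence was at hand from RefSeq (GRCm38.p6, a later build than the gene positions above) for 4 members, Fshr, Inha, Inhbb and Cldn11. The 250 bases upstream of the start were searched on both strands for the E-box CACGTG, for AGGTCA, the core of nuclear receptor sites, and for the GATA site (AGATAA or AGATAG or TGATAA or TGATAG), which are kinds of site bound by factors of Sertoli cells, and for the X-box of RFX factors. The E-box stands in 6.02% of all 32851 such windows, AGGTCA in 14.0%, the GATA site in 26.5% and the X-box in 1.29%. The last 100 bases before the start are shown for the receptor and both subunits of inhibin B, whose samples kept the same order, with the matched letters in capitals.
Fshr, chr17:89200676-89200775, minus strand: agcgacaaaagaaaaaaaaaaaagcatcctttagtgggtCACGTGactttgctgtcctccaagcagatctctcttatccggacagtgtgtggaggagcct
Inha, chr1:75507509-75507608, plus strand: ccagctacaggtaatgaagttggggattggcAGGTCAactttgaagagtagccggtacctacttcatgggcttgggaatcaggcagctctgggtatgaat
Inhbb, chr1:119422249-119422348, minus strand: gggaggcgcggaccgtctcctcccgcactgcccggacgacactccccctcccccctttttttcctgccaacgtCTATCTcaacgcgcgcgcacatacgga
Counting back from -1 at the base before the start, Fshr held the E-box at -61 to -56, Inha held AGGTCA at -69 to -64, and Inhbb held a GATA site at -27 to -22, on the opposite strand, where the capitals read AGATAG. The matched letters of the 3 genes do not overlap any other motif searched. Cldn11 held none of the 4 motifs, and none of these 4 windows held an X-box. A match is a run of letters and no measured site.

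Other genes of Sertoli cells were taken from 3 further lists. The mean log2 level of the transcription factors and of the secreted and support genes had the same order of samples as the 9 members, from mutant 1 down to control 1, whereas junction and cytoskeleton genes were highest in control 2 (3.55) and lowest in mutant 2 (3.24). Of these lists, 34 genes were tested, and 0 were called at an adjusted p under 0.05 by limma, with 0 higher and 2 lower at an unadjusted p under 0.05 (2.01% and 6.68% of all genes tested). Their median log2 fold change was 0.12, with 26 of the 34 above 0, beside 57.3% of all genes tested. Control 2 was above control 1 for 28 of the 34, and mutant 1 above mutant 2 for 33 (59.0% and 68.1% of all genes tested). Both mutants were above both controls for 4 of the 34 and below for 3, beside 16.3% and 15.2% of all genes tested.

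Among transcription factors beside the members, 8 of 10 were tested, with a median of 0.13. Rhox8, a homeobox gene of Sertoli cells, had the highest log2 fold change at 0.34 (adjusted p = 0.938), with 30.7 and 25.5 FPKM in the mutants and 18.7 and 25.5 in the controls. Zfpm2, whose product is a cofactor of GATA4, had the lowest at -0.18, with 2.06 and 1.69 against 2.46 and 2.07 FPKM. Among secreted and support genes, 15 of 16 were tested, with a median of 0.18. Defb36, a defensin, was highest at 0.37 (adjusted p = 0.763), with 84.3 and 78.7 against 54.4 and 72.7 FPKM, and Aldh1a1, a retinaldehyde dehydrogenase, lowest at -0.16. In this list both mutants were above both controls for 3 of the 15 genes, Defb36 and Trf among them, beside 16.3% of all genes tested.

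Among junction and cytoskeleton genes, 11 of 12 were tested, with a median of 0.077. Espn, which encodes an actin-bundling protein of the ectoplasmic specialization, was highest at 0.30 (adjusted p = 0.955), with 34.8 and 27.1 against 25.3 and 24.4 FPKM.

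Genes that receive or relay the hormone signals were also tested. Of 16 genes of inhibin, activin and AMH signalling, 13 were tested and 0 called by limma, with a median of 0.037 and 1 higher and 1 lower at an unadjusted p under 0.05, beside the 2.01% and 6.68% of all genes tested. Smad3, an intracellular transducer of activin, was highest at 0.49 (adjusted p = 0.551), with 2.63 and 3.23 against 1.70 and 1.87 FPKM. Tgfbr3, encoding betaglycan, which binds inhibin, was lowest at -0.56 (adjusted p = 0.542), with 2.13 and 1.31 against 2.72 and 3.22 FPKM. Of 9 genes downstream of the FSH receptor, 8 were tested and 0 called, beside 0.308% called higher and 2.52% lower of all genes tested. At an unadjusted p under 0.05 by limma, 0 were higher and 1 lower, beside 2.01% and 6.68% of all genes tested. Prkar2a, a regulatory subunit of protein kinase A, was lowest at -0.89 (adjusted p = 0.265), with 2.92 and 5.77 against 8.91 and 8.18 FPKM. Prkar2b, another regulatory subunit, was highest at 0.11.

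Markers of other testis cells moved between samples too. Of 6 markers of elongating spermatids 6 were tested and 0 were at 0 FPKM. The name of this list does not mean that such cells were present, since the paper reports that mutant spermatids failed to elongate. The summed FPKM of the 6 genes was 814 and 5258 in mutant 1 and 2 and 7075 and 4716 in control 1 and 2. Samples ordered by this sum from low to high are mutant 1, control 2, mutant 2 and control 1. The mean centred level of the 9 members fell in that same order, but not in proportion. It was 0.197 in mutant 1, 0.185 in control 2, -0.057 in mutant 2 and -0.325 in control 1. Whether spermatid RNA had a part in the Sertoli values was not tested. The 6 round spermatid markers summed to 412 and 705 FPKM in the mutants and 626 and 516 in the controls. Their order, with mutant 2 the highest, differs from that of the elongating spermatid markers.

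The 7 spermatocyte genes summed to 480 and 371 FPKM in the mutants and 377 and 416 in the controls. The 6 spermatogonia genes summed to 405 and 412 against 434 and 366. Most of the spermatogonia sum was Dmrtb1, at 320 and 343 FPKM in the mutants and 374 and 279 in the controls. Control 2 was above control 1 for 5 of the 6 spermatogonia genes, Dmrtb1 being the exception. Of 8 Leydig cell markers 7 were tested, with 461 and 245 FPKM in the mutants and 396 and 140 in the controls, an order of samples that differs from that of the members. The 5 peritubular myoid genes summed to 84.7 and 86.9 against 77.0 and 108.5 FPKM. Macrophage genes (4 of 5 tested) summed to 12.8 and 8.93 against 10.9 and 12.7 FPKM, and endothelial genes (2 of 5 tested) to 4.74 and 4.65 against 4.19 and 5.52. In none of these lists was a gene called by limma.

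**Figure D4:**
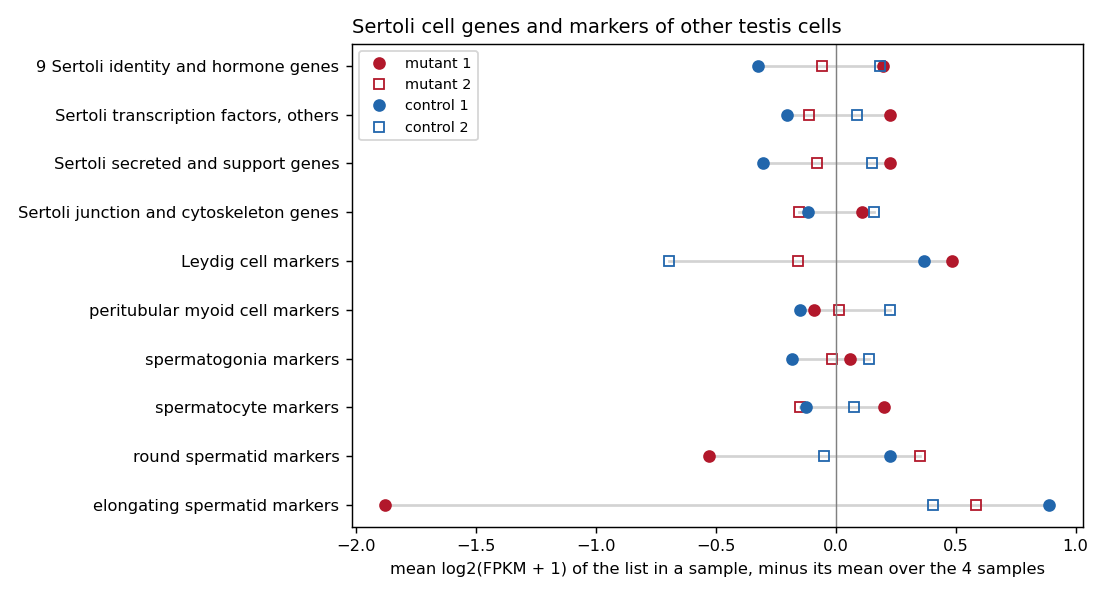
Mean log2(FPKM + 1) of each list in a sample, minus its mean over the 4 samples, for the 9 members, the 3 further Sertoli lists and markers of other testis cells. The 9 members range from -0.325 in control 1 to 0.197 in mutant 1, while elongating spermatid markers are lowest in mutant 1 and highest in control 1.

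Likeness was measured as the root mean square distance between a gene's log2 profile over the 4 samples, centred on its mean, and the mean centred profile of the members. The nearest of all other genes tested was Aldh18a1 at 0.0059, followed by Sycp1 at 0.0098. Sycp1, which encodes a protein of the synaptonemal complex in meiotic germ cells, was at 74.5 and 61.9 FPKM in the mutants and 52.0 and 74.6 in the controls. The members themselves lay between 0.022 (Amh) and 0.13 (Gata4) from their mean profile. A profile over 4 samples is short, and it placed a germ cell gene nearer to that mean than any member.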

How the data were processed

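Total RNA of whole testes was sequenced at P24 in 2 mutant and 2 control samples, described as biological replicates. The authors aligned reads to mm9 with TopHat2 (2.0.6) and ran Cufflinks. The deposited unit is FPKM per gene, scaled to length and depth inside each sample, with confidence bounds. Their differential test by Cuffdiff needs reads and was not repeated.

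Entries that share a symbol were summed, giving 22311 genes. A gene was kept where 2 or more samples reached an FPKM of 1, which left 12985. These were tested on log2(FPKM + 1) with limma 3.58.1 under R 4.3.3 (lmFit, eBayes with a trend), two-sided, with Benjamini-Hochberg adjustment over all of them and a threshold of 0.05. The pseudocount of 1 shrinks the changes of low genes. The functions were tested on simulated data. Fragments were estimated from the width of the confidence bounds. Tables and figures were made with python 3.11.15, pandas 2.3.3, numpy 2.4.6 and matplotlib 3.10.9.

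The members and lists were chosen with earlier results of these data known, so no p over the members alone and no test of a list is given. Named genes are the 9 members, Rfx2, in each Sertoli and signalling list the genes called and those with the highest and lowest log2 fold change, and the 3 genes most like the members. Some genes that this rule names are not reported here. Amhr2, Inhba, Dmrtb1 and genes with both mutants on the same side of both controls were named after their values were seen. Alternatives were other pseudocounts (0.1 and 0.01), filters (none, 0.1 and 5), scalings, eBayes settings, limma-voom on the estimated fragments, a replicate block and each sample left out. The crossed replicate block and the order of samples under each scaling were added after seeing the data.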

Additional observations from a re-analysis of the deposited data

How the results depend on the processing

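Of 161 values of the 9 log2 fold changes under the alternatives, 152 have a p by limma. Of these, 0 had an adjusted p under 0.05, and the lowest was 0.524. The 125 values with all 4 samples kept their sign, and 11 of those with a sample left out changed it. Leaving out each sample in turn moved the log2 fold change between -0.255 and 0.453 for Sox9, -0.0249 and 0.476 for Wt1, -0.199 and 0.324 for Gata4, and -0.167 and 0.394 for Fshr. The ranges were -0.174 to 0.308 for Inha, -0.162 to 0.361 for Inhbb, -0.161 to 0.388 for Amh and -0.0752 to 0.470 for Cldn11, and the median over the members moved between -0.161 and 0.394. With a sample left out, the lone sample of its genotype is assumed to vary like the other genotype.

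Over all genes tested, 40 were higher and 327 lower in the mutant. These counts were 17 and 199 without the filter, 17 and 202 with a filter at an FPKM of 5, which Fshr did not pass, and 16 and 206 with median-ratio scaling. Robust eBayes called 67 higher. With a sample left out, 13 to 162 were called higher and 167 to 948 lower. The cause of these differences was not tested. The endothelial median could not be computed with the filter at 5, since no gene passed it.

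With the replicate block, 70 genes were called higher and 525 lower, and with the crossed replicate block, added after seeing the data, 28 and 266. Neither called a member. Across the 12985 genes, samples with the same number deviated from their group means with a correlation of -0.15. This correlation rests on a single difference within each genotype, so it cannot settle whether same-numbered samples were handled together. At 113 to 208 fragments per sample, Fshr is the member most limited by depth.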
